A study of Mus musculus with 24 samples.

Results

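The genes described here are 8 loci of mouse chromosome 12: Gm8300, Gm4027, BB287469, Gm1995, Gm2016, Gm2022, Gm5662 and Gm5039. They were taken by symbol, as genes and pseudogenes like Eif1a, from 55385 Ensembl genes in each of 6 tables of RNA levels in naive mouse embryonic stem cells (ESCs), and all 8 were found in every table. They had been named as 2-cell (2C) genes with their levels in these libraries in view. Every level, fold change and overlap of groups given for them is therefore a description, with no test.

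The parent protein, eIF1A, is a translation initiation factor that binds the small ribosomal subunit and helps it scan an mRNA for its start codon. In the mouse it is encoded by Eif1ax on the X chromosome and by Eif1a on chromosome 18. Eif1a-like copies on chromosome 12 are known from the 2-cell embryo, where the zygotic genome is first transcribed, together with MERVL retroviral elements and the Zscan4 genes. A small fraction of cultured ESCs passes in and out of a 2C-like state in which the same genes are active.

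RNA was sequenced from 24 libraries in 12 groups of 2. Naive ESCs in 2i/LIF medium, whose line the labels do not name, were stained with the dye TMRM, whose uptake follows the mitochondrial membrane potential (ΔΨm or MMP). The dimmest 5% were collected as low ΔΨm cells, also called spontaneous quiescent ESCs or qESCs, and the brightest 5% as high ΔΨm cells. In the other experiments, ESCs with Mat2a siRNA, which lowers the enzyme that makes S-adenosylmethionine (SAM), were set against ESCs with control siRNA, and ESCs with etomoxir for 4 days, an inhibitor of fatty acid oxidation (FAOi), against ESCs with water. ESCs with a MYC inhibitor for 3 days (MYCi) were set against ESCs with DMSO, and low ΔΨm cells with 50 µM SAM for 24 hours against low ΔΨm cells with 25 µM SAM for the same time. Eed−/− ESCs, which lack a core subunit of Polycomb repressive complex 2, were set against Eed fl/− ESCs with 1 intact allele. The Eed lines were male, of the 129/S1 background, and derived on feeder cells. Their 2i/LIF medium held serum replacement and fetal bovine serum, while the routine 2i/LIF medium, built on N2B27, listed no serum. They came from blastocysts whose fathers carried Protamine CRE, which acts in the male germ line. The genotype therefore cannot be told apart from other differences between lines. The study called its duplicates biological, and 2 libraries a group give little hold on the spread.

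Levels are FPKM, fragments per kilobase of gene scaled to a size set for each library, as deposited, in tables that were normalized separately. The steps between low values put the fragments over Ensembl genes at 27.2 to 64.2 M per library. By the same steps, the second water library was scaled to 35.2 M, fewer than its 39.6 M fragments over genes. The first FAOi library was scaled to 66.6 M, against 30.9 M fragments over genes. Levels as listed were thus not scaled by fragment number alone. Mat2a was listed at 13.5 and 9.44 FPKM in the Mat2a siRNA libraries against 48.5 and 45.1 FPKM with control siRNA, and Eed at 2.72 and 2.78 FPKM in Eed−/− ESCs against 11.4 and 11.6 FPKM in Eed fl/− ESCs. Of 10 naive ESC markers, 9 or 10 reached 1 FPKM in every library, and of 10 feeder fibroblast markers 0 to 3 did. The feeder markers summed to 8.27 and 9.59 FPKM in Eed−/− ESCs and 8.09 and 9.40 FPKM in Eed fl/− ESCs, against 0.423 to 3.16 FPKM in the other libraries, and their part in the levels below was not tested. The median log2 fold change over all tested genes was -0.63 with Mat2a siRNA, -0.66 with FAOi, -0.65 with MYCi and -0.40 at 50 µM SAM. Rescaling each library by the median of its ratios to the other libraries (median-of-ratios scaling) moved these medians by 0.66, 0.70, 0.68 and 0.40. For the low against high ΔΨm and the Eed comparisons that shift was -0.04 and -0.10.

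The 8 loci lie within 809.7 kb of GRCm38 chromosome 12, at 87514316 to 88324026, in a stretch that holds 74 Ensembl genes. Gm8300 (87514316 to 87518266) and Gm4027 (87618869 to 87622955) lie before the interval of 87.8 to 88.3 Mb by which the group was described. BB287469 (87816577 to 87820676), Gm1995 (87861366 to 87863967), Gm2016 (87874072 to 87877859) and Gm2022 (87895370 to 87895804) follow on the same plus strand. Gm5662 (88270640 to 88274500) and Gm5039 (88320122 to 88324026) close the cluster on the minus strand, the last just outside the interval. In 6 of the genes the annotation gives 2-exon transcripts of 1766 to 1873 bases with the coding sequence whole within the second exon. Gm2022 is annotated as its 435 coding bases alone.

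Gm1995 went against the name of the group. Its annotated transcript, a processed pseudogene of 2602 bases, matched no Eif1a gene and shared 0% of its 100-base words with the other loci. It aligned with Rexo1, an RNA exonuclease gene of chromosome 10, at 90.7% identity over 441 bases. It is kept among the 8 by its symbol. Without it the log2 fold changes of the summed level given below were 6.35 in low ΔΨm cells, 3.65 with Mat2a siRNA, 1.92 in Eed−/− ESCs, -2.84 with FAOi, -0.86 with MYCi and -0.36 at 50 µM SAM.

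The other 7 loci each carry an intact reading frame of 435 bases, the length of the Eif1ax reading frame, which is spread over 7 exons. The copies were 97.0% to 100% identical to one another and 83.7% to 85.1% identical to Eif1ax over these bases, with 22 positions that varied among them. Coding bases 340 to 429 hold 9 of those positions and are shown, with Eif1ax for comparison, because they show how little separates the copies by which fragments can be told apart. They are from GENCODE transcripts of GRCm38, written 5′ to 3′ on the coding strand, and capitals mark bases that differ from Eif1ax.
Gm8300: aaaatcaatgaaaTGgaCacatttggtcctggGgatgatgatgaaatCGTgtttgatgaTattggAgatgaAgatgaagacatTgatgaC
Gm4027: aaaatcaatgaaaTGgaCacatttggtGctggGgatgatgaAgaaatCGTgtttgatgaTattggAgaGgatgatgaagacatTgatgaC
BB287469: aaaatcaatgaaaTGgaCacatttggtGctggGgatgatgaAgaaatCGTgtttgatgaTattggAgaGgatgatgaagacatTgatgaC
Gm2016: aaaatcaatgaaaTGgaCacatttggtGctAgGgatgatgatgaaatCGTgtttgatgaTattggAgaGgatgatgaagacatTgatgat
Gm2022: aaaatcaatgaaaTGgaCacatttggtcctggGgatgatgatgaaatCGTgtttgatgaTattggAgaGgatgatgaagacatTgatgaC
Gm5662: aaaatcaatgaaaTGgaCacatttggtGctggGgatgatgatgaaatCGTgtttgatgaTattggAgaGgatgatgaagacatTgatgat
Gm5039: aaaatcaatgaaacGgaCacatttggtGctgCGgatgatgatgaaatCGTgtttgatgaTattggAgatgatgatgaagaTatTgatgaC
Eif1ax: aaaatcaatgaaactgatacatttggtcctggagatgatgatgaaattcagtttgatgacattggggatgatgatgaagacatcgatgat

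Gm4027 and BB287469 had the same 435 coding bases, and 91.4% and 91.3% of their 100-base words occur in another annotated gene. That share was 66.7% for Gm2022, 64.7% for Gm2016, 58.4% for Gm5662, 23.0% for Gm1995, 10.8% for Gm8300 and 3.81% for Gm5039. The authors divided a fragment that fits several places among them. Levels of the loci with high shares are thus partly one measurement. The summed level also depends on how fragments were divided, since FPKM divides by length and the 8 differ in it.

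RefSeq promoters of GRCm38.p6 were at hand for 2 of the 8 loci. The 120 bases before the start of BB287469 (chr12:87816457-87816576, plus strand) are shown because Gm4027 has the identical 120 bases at chr12:87618748-87618867, 0 of them different.
BB287469: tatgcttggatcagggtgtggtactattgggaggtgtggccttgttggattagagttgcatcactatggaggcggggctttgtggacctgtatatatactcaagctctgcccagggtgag
Within 300 bases around the start, both promoters held the letters TATATA, searched on both strands, as did 5.67% of 32851 promoters. Neither held TATAAA, found in 13.6% of promoters, nor the Dux motif, found in 0.0335%.

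All 8 loci were higher in low ΔΨm cells than in high ΔΨm cells, in both libraries, and together they reached 130 and 115 FPKM in low ΔΨm cells, against 1.26 and 1.52 FPKM in high ΔΨm cells. The log2 fold change of the sum was 6.37 (SE 0.16, n = 2 each). For scale, 34.4% of the 21086 genes tested had both low ΔΨm libraries above both high ΔΨm libraries. The median log2 fold change was 5.79 over the 8 loci and 0.04 over all tested genes.

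Gm2016 was the highest of the 8 in low ΔΨm cells, with 37.5 and 34.1 FPKM, against 0.296 and 0.415 FPKM in high ΔΨm cells. Gm5662, whose coding sequence is the nearest to that of Gm2016, had 24.8 and 22.2 FPKM in low ΔΨm cells, against 0.272 and 0.248 FPKM in high ΔΨm cells. For Gm2022, the coding-only locus, 19.3 and 14.3 FPKM were listed in low ΔΨm cells, against 0.0705 and 0.123 FPKM in high ΔΨm cells. The high ΔΨm values of Gm2022 rest on about 1.98 and 2.56 estimated fragments, so that no ratio is given for it.

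Gm8300 stood at 14.9 and 12.8 FPKM in low ΔΨm cells, against 0.124 and 0.153 FPKM in high ΔΨm cells. Gm4027 reached 9.84 and 9.16 FPKM in low ΔΨm cells, against 0.0658 and 0.103 FPKM in high ΔΨm cells. Its near twin BB287469 reached 6.45 and 6.03 FPKM in low ΔΨm cells, against 0.0473 and 0.0552 FPKM in high ΔΨm cells. The pair lay below Gm8300 in both groups.
Gm1995, the Rexo1-like pseudogene, was the lowest of the 8 in low ΔΨm cells, at 4.91 and 4.403 FPKM, against 0.0357 and 0.0443 FPKM in high ΔΨm cells. Gm5039 had the smallest log2 fold change of the 8, 4.73 (SE 0.09), with 12.8 and 11.6 FPKM in low ΔΨm cells against 0.347 and 0.378 FPKM in high ΔΨm cells. The next smallest was 5.09 for Gm1995.

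**Figure D1:**
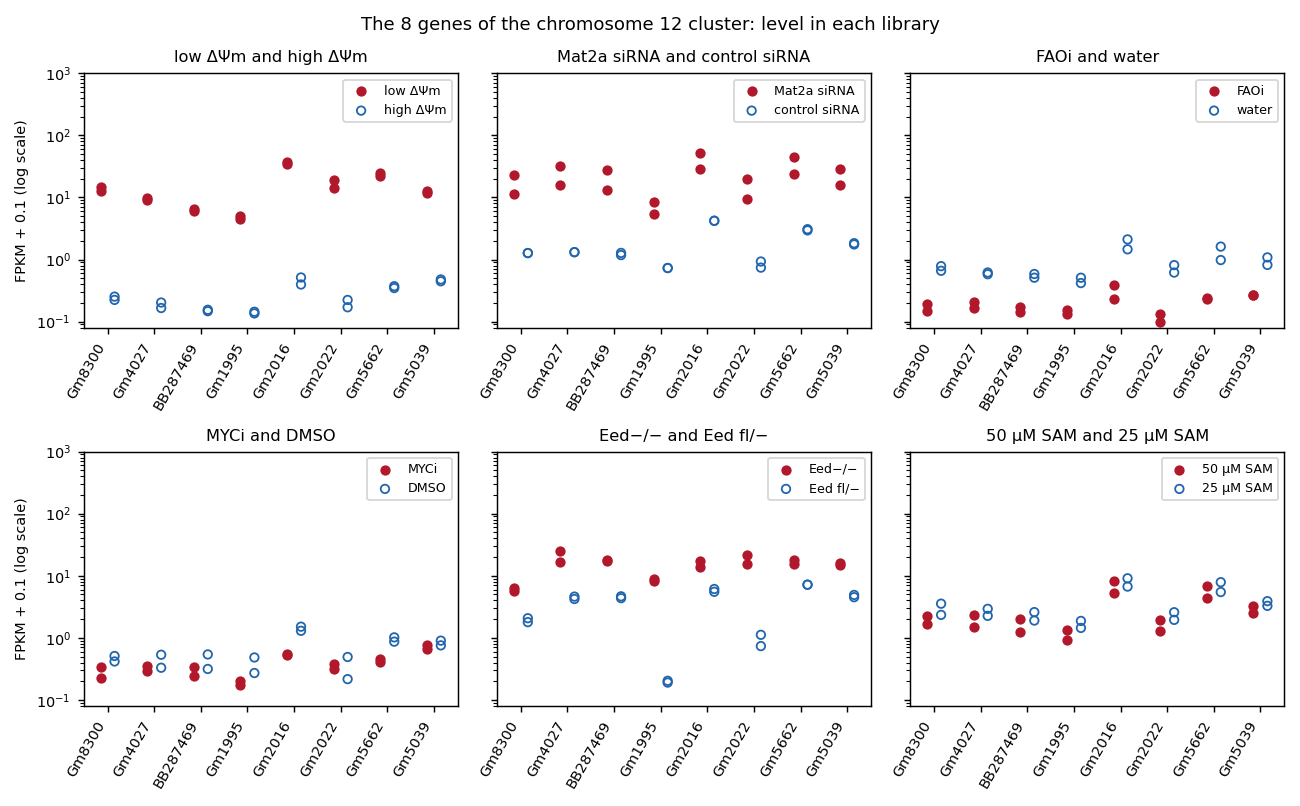
FPKM plus 0.1 (vertical, log scale) of each of the 8 loci in cluster order (horizontal), 1 point per library and 2 libraries per group, in the 6 tables. Filled points lie above open points for every locus in low ΔΨm, Mat2a siRNA and Eed−/− cells, below them for every locus with FAOi, and they overlap for 4 of the 8 loci with MYCi and for 4 with 50 µM SAM.

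Mat2a-depleted ESCs held more RNA of all 8 loci than ESCs with control siRNA. The sum was 237 and 122 FPKM with Mat2a siRNA, against 13.5 and 13.7 FPKM with control siRNA, a log2 fold change of 3.64 (SE 0.48) or 4.39 after median-of-ratios scaling. Both Mat2a siRNA libraries lay above both control libraries in 19.2% of 24938 tested genes. As listed, the first Mat2a siRNA library was the higher for every locus, and without it the log2 fold change of the sum was 3.16. Eif1a was also higher in the first Mat2a siRNA library, at 44.2 FPKM against 23.3 FPKM in the second. The first was scaled to 63.7 M for 39.7 M fragments over genes, and the second to 87.9 M for 34.3 M. The gap between these 2 libraries is thus partly one of scaling.

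The level of Gm2016 was 52.7 and 28.6 FPKM with Mat2a siRNA, against 4.117 and 4.102 FPKM with control siRNA. Gm5662 had 44.9 and 23.6 FPKM with Mat2a siRNA, against 2.98 and 2.85 FPKM with control siRNA. Gm4027 had the largest log2 fold change of the 8, 4.11 (SE 0.52), with 32.5 and 15.7 FPKM with Mat2a siRNA against 1.21 and 1.21 FPKM with control siRNA. Gm4027 was the third highest of the 8 loci in both Mat2a siRNA libraries, and lay below Gm5039 with control siRNA.
BB287469 stood next to Gm4027, at 27.2 and 13.0 FPKM with Mat2a siRNA against 1.08 and 1.18 FPKM with control siRNA. Gm5039 was at 28.9 and 15.7 FPKM with Mat2a siRNA, against 1.65 and 1.73 FPKM with control siRNA. For Gm8300, 23.1 and 11.2 FPKM were listed with Mat2a siRNA, against 1.17 and 1.17 FPKM with control siRNA. These 3 loci had similar levels within each library.
Gm2022 showed 19.5 and 9.32 FPKM with Mat2a siRNA, against 0.641 and 0.829 FPKM with control siRNA. Gm1995 had the smallest log2 fold change, 3.20 (SE 0.32), at 8.26 and 5.26 FPKM with Mat2a siRNA against 0.629 and 0.632 FPKM with control siRNA.

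Eed−/− ESCs also held more RNA of every one of the 8 loci than Eed fl/− ESCs, and here the loci differed most among themselves. The sum was 107 and 130 FPKM in Eed−/− ESCs, against 29.0 and 28.8 FPKM in Eed fl/− ESCs, a log2 fold change of 2.03 (SE 0.14). Of 27015 tested genes, 41.8% had both Eed−/− libraries above both Eed fl/− libraries. The median log2 fold change was 1.83 over the 8 loci and 0.11 over all tested genes.

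Gm1995, the Rexo1-like pseudogene, had the largest log2 fold change, 5.45 (SE 0.07), with 8.18 and 8.84 FPKM in Eed−/− ESCs against 0.0905 and 0.103 FPKM in Eed fl/− ESCs. Gm2022 followed with 4.34 (SE 0.38), at 15.6 and 21.5 FPKM in Eed−/− ESCs against 1.02 and 0.636 FPKM in Eed fl/− ESCs. The other 6 loci were at 1.69 to 7.08 FPKM in Eed fl/− ESCs.
Gm4027 stood at 16.3 and 24.5 FPKM in Eed−/− ESCs, against 4.12 and 4.51 FPKM in Eed fl/− ESCs. BB287469 was at 17.2 and 17.7 FPKM in Eed−/− ESCs, against 4.25 and 4.56 FPKM in Eed fl/− ESCs. Both had log2 fold changes near 2, with 2.19 (SE 0.30) for Gm4027 and 1.96 (SE 0.05) for BB287469.
Gm5039 had 14.6 and 15.9 FPKM in Eed−/− ESCs, against 4.41 and 4.81 FPKM in Eed fl/− ESCs. Gm8300 was the lowest of the 8 in Eed−/− ESCs, with 5.64 and 6.36 FPKM, against 1.97 and 1.69 FPKM in Eed fl/− ESCs. Gm2016 had 13.8 and 17.4 FPKM in Eed−/− ESCs, against 6.02 and 5.42 FPKM in Eed fl/− ESCs. Gm5662 had the smallest log2 fold change, 1.22 (SE 0.11), with 15.4 and 17.96 FPKM in Eed−/− ESCs against 7.07 and 7.08 FPKM in Eed fl/− ESCs, where it was the highest of the 8.

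FAOi went the other way. The sum of the 8 loci was 0.662 and 0.910 FPKM with FAOi, against 5.36 and 7.21 FPKM with water, a log2 fold change of -2.85 (SE 0.29) or -2.10 after median-of-ratios scaling. Each locus was lower in both FAOi libraries than in both water libraries, as were 62.8% of 25421 tested genes. The median log2 fold change was -1.96 over the 8 loci and -0.66 over all tested genes, and each of the 8 remained below 0 after rescaling, at -2.23 to -1.16.

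Gm2016 stood at 0.128 and 0.289 FPKM with FAOi, against 1.36 and 2.01 FPKM with water. Gm5662 was at 0.133 and 0.136 FPKM with FAOi, against 0.881 and 1.52 FPKM with water. Gm5039 had 0.164 and 0.168 FPKM with FAOi, against 0.720 and 0.983 FPKM with water. Gm2022 was listed at 0 and 0.0308 FPKM with FAOi, which is about 0 and 1 fragments, against 0.517 and 0.714 FPKM with water, or about 10.9 fragments each.
The other 4 loci lay between 0.0346 and 0.110 FPKM with FAOi, against 0.318 to 0.683 FPKM with water. Levels with FAOi rested on at most 38.0 estimated fragments a locus and library. The log2 fold changes depend on the pseudocount of 0.1 at such levels, and with a pseudocount of 1 the sum gave -2.02.

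With MYCi 7 of the 8 loci had a log2 fold change below 0, the exception being Gm2022 at 0.06, and the groups overlapped for 4. The sum was 2.25 and 2.40 FPKM with MYCi, against 4.95 and 3.91 FPKM with DMSO, a log2 fold change of -0.89 (SE 0.17). After median-of-ratios scaling this was -0.15, and 4 of the 8 loci then had a log2 fold change above 0 and 4 below. Both MYCi libraries lay below both DMSO libraries for 4 of the 8 loci, against 68% of 24335 tested genes.

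Gm2016 had the lowest log2 fold change, -1.38 (SE 0.11), at 0.447 and 0.429 FPKM with MYCi against 1.41 and 1.20 FPKM with DMSO. Gm5662 stood at 0.314 and 0.357 FPKM with MYCi, against 0.917 and 0.768 FPKM with DMSO. Gm1995, at 0.1003 and 0.0756 FPKM with MYCi against 0.383 and 0.171 FPKM with DMSO, and Gm8300, at 0.125 and 0.241 FPKM with MYCi against 0.316 and 0.410 FPKM with DMSO, also did not overlap between groups.
The groups overlapped for the other 4. Gm5039 was the highest of the 8 in both MYCi libraries, with 0.568 and 0.677 FPKM with MYCi against 0.657 and 0.802 FPKM with DMSO. Gm2022 had 0.210 and 0.276 FPKM with MYCi, against 0.392 and 0.116 FPKM with DMSO. The values of Gm4027 were 0.251 and 0.195 FPKM with MYCi against 0.434 and 0.230 FPKM with DMSO, and those of BB287469 were 0.234 and 0.147 FPKM with MYCi against 0.441 and 0.215 FPKM with DMSO.

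**Figure D2:**
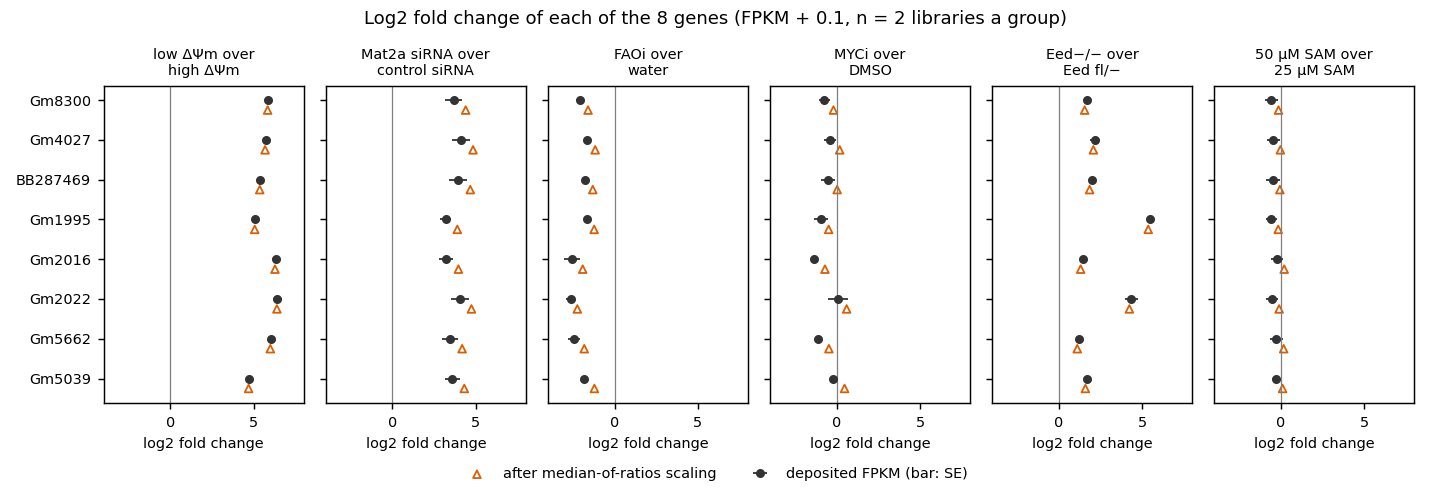
Log2 fold change of FPKM plus 0.1 (horizontal) of each of the 8 loci in cluster order (vertical), with the SE of 2 libraries a group as bars, and the same after median-of-ratios scaling as triangles, in the 6 comparisons. Rescaling left every value above 0 in low ΔΨm, Mat2a siRNA and Eed−/− cells and below 0 with FAOi, while MYCi and 50 µM SAM had values on both sides of 0 after it.

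Between the 2 doses of SAM, the methyl donor that Mat2a makes, the loci differed little. The sum was 27.3 and 18.03 FPKM in low ΔΨm cells with 50 µM SAM, against 33.6 and 24.5 FPKM in low ΔΨm cells with 25 µM SAM, and the groups overlapped. Its log2 fold change was -0.37 (SE 0.38), or 0.07 after median-of-ratios scaling. For 4 of the 8 loci both libraries at 50 µM lay below both at 25 µM, as did 35.6% of 23911 tested genes.

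Gm2016 had 8.09 and 5.24 FPKM at 50 µM SAM, against 8.99 and 6.59 FPKM at 25 µM SAM. Gm5662 had 6.70 and 4.25 FPKM at 50 µM SAM, against 7.77 and 5.36 FPKM at 25 µM SAM. Log2 fold changes of the 8 loci ran from -0.57 for Gm1995 to -0.24 for Gm2016, and they lay between -0.16 and 0.20 after rescaling, with Gm5662, Gm2016 and Gm5039 above 0. Low ΔΨm cells without SAM were in another table, where the sum was 130 and 115 FPKM. Since the tables were normalized separately, that value can only be set beside these.

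As listed, the summed level was lowest in FAOi cells and next lowest in high ΔΨm cells, and the control cultures differed between tables. Levels were 1.26 and 1.52 FPKM in high ΔΨm cells, 4.95 and 3.91 FPKM with DMSO, 5.36 and 7.21 FPKM with water, 13.5 and 13.7 FPKM with control siRNA and 29.0 and 28.8 FPKM in Eed fl/− ESCs. No test was run across tables.

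The makeup of the sum changed as well as its size. Gm2016 held the largest share in 16 of 24 libraries, Gm5039 in 4 and Gm5662 in 2. The share was 12.9% to 31.7% for Gm2016 (median 26.8%), and the next highest median was that of Gm5662, with 13.8% to 24.6% (median 19.5%). The share of Gm5039 was 9.80% and 10.1% in low ΔΨm cells, against 27.6% and 24.9% in high ΔΨm cells. It was 25.3% and 28.2% with MYCi, against 13.3% and 20.5% with DMSO, and 24.8% and 18.4% with FAOi, against 13.4% and 13.6% with water. Gm5039 thus took a larger share in the groups where the sum was low in these 3 tables. It is the copy nearest to Eif1a, whose coding sequence it matches at 94.9% over 434 bases, and Eif1a was listed at 23.3 to 74.9 FPKM in the libraries. Whether fragments of Eif1a entered the level of Gm5039 was not tested.

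In the Eed lines the shares differed from those in the other tables. Gm4027 and BB287469 each held 13.6% to 18.8% of the sum in Eed−/− ESCs and 14.2% to 15.8% in Eed fl/− ESCs, against 3.63% to 16.5% in the other 20 libraries. Gm2022 held 14.6% and 16.5% of the sum in Eed−/− ESCs, against 3.52% and 2.21% in Eed fl/− ESCs. Gm1995 held 7.67% and 6.79% in Eed−/− ESCs, against 0.313% and 0.359% in Eed fl/− ESCs.

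**Figure D3:**
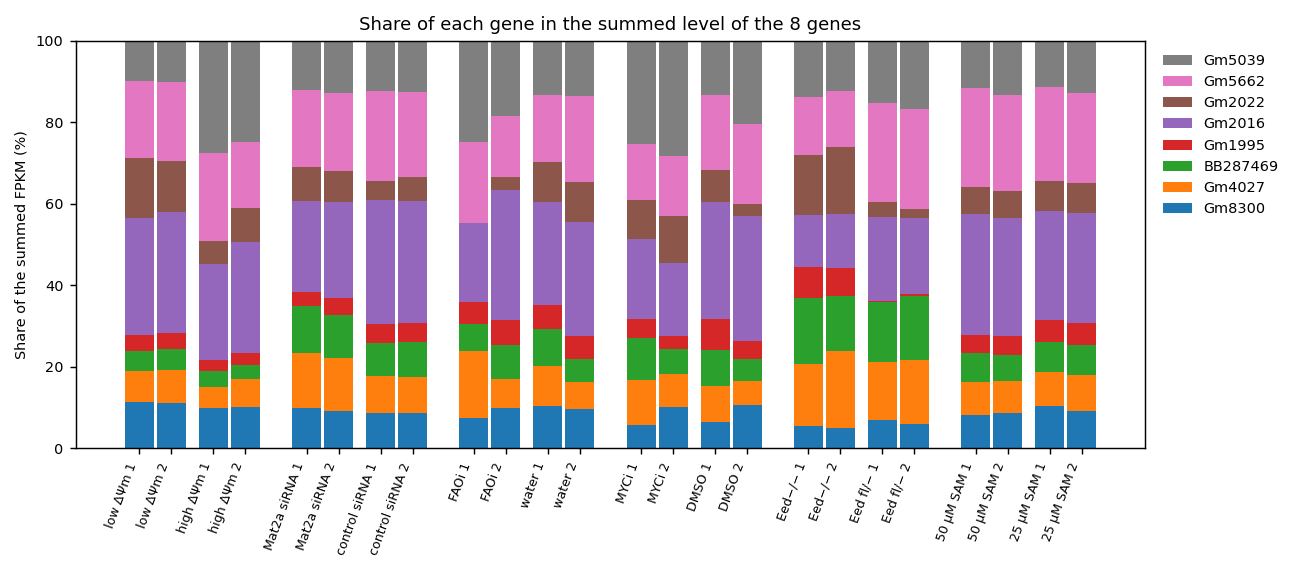
Share of each locus (colours, in cluster order from the bottom) in the summed FPKM of the 8 loci (vertical, percent) in the 24 libraries (horizontal, grouped by table). Gm5039 at the top of the bars is wider in high ΔΨm, MYCi and FAOi cells, and Gm1995 is thinnest in Eed fl/− ESCs, at 0.313% and 0.359%.

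Over the 24 libraries, with the mean of each table taken off the log2 level, pairs of the 8 loci correlated at a Pearson's r of 0.849 to 0.996. Gm4027 and BB287469 had the highest value and Gm1995 and Gm5662 the lowest. These points share libraries, and for most pairs fragments, so that the values are a description of 24 libraries in 6 tables. Gm1995, which shares no 100-base word with the other 7, had an r of 0.849 to 0.964 with them.

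The cluster holds more copies than the 8. Aligned to the transcripts of the 8 at 90% identity or more over at least 200 bases, 18 further genes were found, 16 of them on chromosome 12. Of these 16, 13 were copies of the Eif1a-like loci and 3, Gm18983, Gm21939 and Gm7104, were like Gm1995.

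Gm8332, a copy of 435 bases at 88249666 to 88250100 on the minus strand, was higher than any of the 8 in low ΔΨm cells. It was listed at 116 and 107 FPKM in low ΔΨm cells, against 1.17 and 1.17 FPKM in high ΔΨm cells. It had 114 and 59.1 FPKM with Mat2a siRNA, against 4.61 and 4.98 FPKM with control siRNA. In Eed−/− ESCs it stood at 31.4 and 44.5 FPKM, against 4.396 and 4.28 FPKM in Eed fl/− ESCs, and with FAOi at 0.322 and 0.216 FPKM, against 1.83 and 2.38 FPKM with water. Its 435 bases are 99.5% identical to Gm8300, so that fragments may be divided between them. The overlap is partial, since 10.8% of the 100-base words of Gm8300 occur in another annotated gene.

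Of the 13 Eif1a-like copies, 12 were higher in both low ΔΨm libraries than in both high ΔΨm libraries, against 34.4% of all tested genes. The 13 were 95.3% to 99.5% identical to the closest of the loci above, so that fragments may be divided between them. Their counts are thus not separate measurements. Some rested on few estimated fragments in high ΔΨm cells, such as Gm21319 at about 0.11 and 0.5 and Gm6803 at about 0.14 and 0.06. The exception was Gm10264, an unprocessed pseudogene after Gm5039. Gm10264 had 0.121 and 0.0553 FPKM in low ΔΨm cells, against 0.301 and 0.293 FPKM in high ΔΨm cells. It had 0.6998 and 0.967 FPKM with MYCi, against 0.303 and 0.355 FPKM with DMSO. With Mat2a siRNA 12 of the 13 were higher, against 19.2% of all tested genes, and in Eed−/− ESCs 12 were higher, against 41.8%. With FAOi 9 of the 13 were lower, against 62.8% of all tested genes, which is near the share of the copies. The groups overlapped for the rest. With MYCi 6 of the 13 were lower, against 68% of all tested genes, and the groups overlapped for 5. With the 13 copies added, the log2 fold change of the sum was 6.40 in low ΔΨm cells, 3.79 with Mat2a siRNA, 2.17 in Eed−/− ESCs, -2.84 with FAOi, -0.88 with MYCi and -0.32 at 50 µM SAM.

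A pair of copies was listed above 1 FPKM in the Eed lines and in no other library. Gm21939, a Rexo1-like pseudogene, had 10.1 and 12.2 FPKM in Eed−/− ESCs and 5.15 and 6.26 FPKM in Eed fl/− ESCs, against 0 to 0.112 FPKM in the other 20 libraries. Gm21319, an Eif1a-like copy, had 2.72 and 2.77 FPKM in Eed−/− ESCs and 1.88 and 2.27 FPKM in Eed fl/− ESCs, against 0 to 0.445 FPKM in the other 20 libraries. The Gm1995-like pseudogene Gm7104 had 1.57 and 1.56 FPKM in Eed−/− ESCs against 0.00664 and 0.00996 FPKM in Eed fl/− ESCs. Its Eed fl/− values rest on about 1 and 1.5 estimated fragments. Gm7104 is 98.3% identical to Gm1995 over 1444 bases, so that the level of each may hold fragments of the other.

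**Figure D4:**
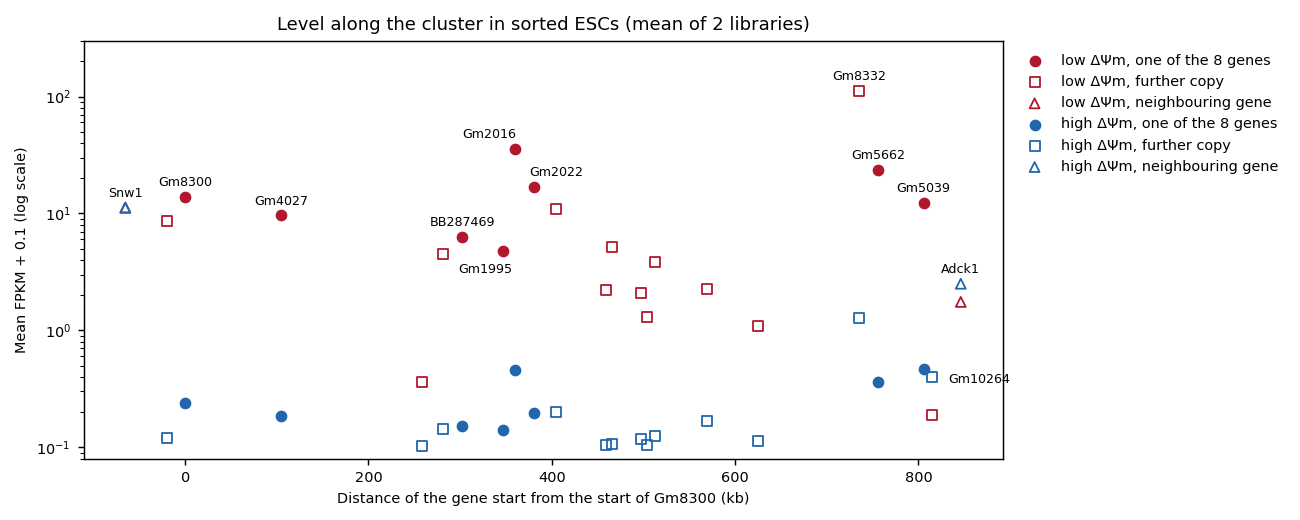
Mean FPKM plus 0.1 of 2 libraries (vertical, log scale) in low ΔΨm cells (red) and high ΔΨm cells (blue) of the 8 loci (filled circles), 13 further Eif1a-like copies (squares) and the neighbouring genes Snw1 and Adck1 (triangles), against the distance of each gene start from that of Gm8300 (horizontal, kb). Red lies above blue for each of the 8 loci and for 12 of the 13 copies and below it for Gm10264 and Adck1, while the libraries of Snw1 overlap.

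The genes next to the cluster, which were taken by position, were tested. On the left, Snw1, a splicing and transcription cofactor, had 11.7 and 10.6 FPKM in low ΔΨm cells against 10.1 and 11.9 FPKM in high ΔΨm cells, a log2 fold change of 0.02 (SE 0.15, limma adjusted p = 0.954). On the right, Adck1, a mitochondrial kinase-like gene, fell by 0.52 on the log2 scale (SE 0.14, limma adjusted p = 0.0218), to 1.66 and 1.64 FPKM in low ΔΨm cells against 2.33 and 2.48 FPKM in high ΔΨm cells. The call of Adck1 was lost without the first or the second low ΔΨm library (limma adjusted p = 0.136 and 0.147) or without the second high ΔΨm library (limma adjusted p = 0.0611), or without the filter (limma adjusted p = 0.118). Neither passed the test in Mat2a-depleted cells, with log2 fold changes of -0.75 (limma adjusted p = 0.114) for Snw1 and -0.58 (limma adjusted p = 0.172) for Adck1, nor in the Eed lines, with -0.32 (limma adjusted p = 0.117) for Snw1 and -0.26 (limma adjusted p = 0.156) for Adck1. Without the first Mat2a siRNA library both passed (limma adjusted p = 0.000406 for Snw1 and 0.00352 for Adck1), and without the second Snw1 did (limma adjusted p = 0.00869). In the Eed lines both passed after rescaling, at -0.44 (limma adjusted p = 0.00557) for Snw1 and -0.37 (limma adjusted p = 0.0308) for Adck1. With FAOi both fell, Snw1 by 1.53 (limma adjusted p = 7.16e-07) and Adck1 by 1.20 (limma adjusted p = 7.23e-05) on the log2 scale, and both still passed after rescaling. Neither call held when a FAOi library was left out (limma adjusted p = 0.0997 to 0.15) or without the filter on low values (limma adjusted p = 0.0732 for each). With MYCi Snw1 fell by 1.22 (limma adjusted p = 9.64e-05) and still passed after rescaling, at -0.46 (limma adjusted p = 0.00182). Adck1 was at -0.73 (limma adjusted p = 0.00199) as deposited and at 0.02 (limma adjusted p = 0.80) after rescaling.

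The parent genes did not pass the test in low ΔΨm cells. Eif1a had 40.0 and 35.2 FPKM in low ΔΨm cells, against 36.4 and 41.3 FPKM in high ΔΨm cells, and a log2 fold change of -0.05 (SE 0.16, limma adjusted p = 0.882). Eif1ax had 9.41 and 7.63 FPKM in low ΔΨm cells, against 7.74 and 9.47 FPKM in high ΔΨm cells, and a log2 fold change of -0.01 (SE 0.16, limma adjusted p = 0.964). Both groups overlapped for each gene.
In Mat2a-depleted cells Eif1ax fell by 1.46 on the log2 scale (SE 0.39, limma adjusted p = 0.00123), to 4.17 and 2.34 FPKM against 8.68 and 8.86 FPKM with control siRNA, and it still passed after rescaling, at -0.72 (limma adjusted p = 0.012). It did not pass without either control library (limma adjusted p = 0.368 and 0.37) or without the filter (limma adjusted p = 0.178). Eif1a fell by 1.05 (SE 0.46, limma adjusted p = 0.0442), to 44.2 and 23.3 FPKM against 66.1 and 67.1 FPKM with control siRNA, a call lost after rescaling, at -0.30 (limma adjusted p = 0.156), or without either control library (limma adjusted p = 0.576 and 0.555), or without the filter (limma adjusted p = 0.276).
In the Eed lines neither passed, with -0.10 for Eif1a (limma adjusted p = 0.509) and -0.21 for Eif1ax (limma adjusted p = 0.183), though both were lower after rescaling, by 0.21 and 0.32 (limma adjusted p = 0.0461 and 0.0237). Both fell with FAOi and with MYCi. Eif1ax fell by 2.04 with FAOi (SE 0.28, limma adjusted p = 1.15e-11) and by 2.02 with MYCi (SE 0.16, limma adjusted p = 2.76e-05). Eif1a fell by 1.22 (limma adjusted p = 0.000398) and 1.23 (limma adjusted p = 0.000155), and all 4 calls held after rescaling. Without the first or the second FAOi library the FAOi call of Eif1a was lost (limma adjusted p = 0.236 and 0.268). Without the filter neither FAOi call held (limma adjusted p = 0.0841 for Eif1ax and 0.0866 for Eif1a). In the SAM table neither passed (limma adjusted p = 0.603 for each).

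Eif1 and Eif1b, which encode the partner factor eIF1 in start codon selection, and Eif1ad, which encodes a protein with an eIF1A-like domain, did not pass in low ΔΨm cells, with log2 fold changes of -0.10, -0.09 and -0.01, though Eif1 did after rescaling, at -0.15 (limma adjusted p = 0.0295). With MYCi, Eif1 fell by 1.22, Eif1b by 0.70 and Eif1ad by 1.13 on the log2 scale (limma adjusted p = 0.000144, 0.00481 and 0.000164), and Eif1b was at 0.06 after rescaling (limma adjusted p = 0.607) and lost its call without the first DMSO library (limma adjusted p = 0.181) or without the filter (limma adjusted p = 0.14). In Eed−/− ESCs Eif1 passed after rescaling alone, at -0.34 (limma adjusted p = 0.012), and Eif1ad fell by 0.59 (limma adjusted p = 0.0244), to 7.29 and 8.93 FPKM in Eed−/− ESCs against 11.9 and 12.5 FPKM in Eed fl/− ESCs, a call lost without either Eed fl/− library (limma adjusted p = 0.0757 and 0.109) or without the filter (limma adjusted p = 0.126).

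In a list of 38 genes of translation initiation, all tested in every table, 2 rose and 0 fell in low ΔΨm cells, against 14% and 6.45% of all tested genes called by limma. At an unadjusted p under 0.05 these counts were 4 and 0, and 8 rose and 9 fell after rescaling, near the 19.4% and 17.0% of all genes called then. Without the filter on low values 1 of the 38 was called. The 2 that rose were Eif4g3, a scaffold of the cap-binding complex, by 2.02 (SE 0.14, limma adjusted p = 9.04e-07) to 5.28 and 4.996 FPKM in low ΔΨm cells against 1.15 and 1.23 FPKM in high ΔΨm cells, and Eif2s3y, the Y-linked gene of an eIF2 subunit, by 1.45 (SE 0.15, limma adjusted p = 2.43e-05).
In Mat2a-depleted cells 27 of the 38 fell and 0 rose, against 36.8% and 13.1% of all genes, with Eif2s3x, the X-linked eIF2 subunit gene, lowest at -1.51 (limma adjusted p = 0.00305), followed by Eif1ax. At an unadjusted p under 0.05 limma gave 32 and 0, and after rescaling 19 fell and 1 rose, against 19.8% and 23.0% of all genes. Without the first or the second control library, or without the filter on low values, 0 of the 38 were called. With FAOi 35 fell and 1 rose, against 51.3% and 13.9% of all genes, and with MYCi 37 fell and 1 rose, against 57.8% and 7.89% of all genes. After rescaling these counts were 30 and 2 with FAOi, against 31.2% and 30.9% of all genes, and 32 and 1 with MYCi, against 28.4% and 25.4%. Without the first or the second FAOi library 2 of the 38 were called with FAOi, and without the filter 0 were.
Eif4g3 was the gene that rose with either inhibitor, by 2.36 with FAOi (limma adjusted p = 3.78e-15) and 2.19 with MYCi (limma adjusted p = 3.48e-05). The largest falls after Eif1ax were of Eif3i, an eIF3 subunit gene, by 1.75 with FAOi (limma adjusted p = 5.60e-08), and of Eif6, which keeps ribosomal subunits apart, by 1.66 with MYCi (limma adjusted p = 4.20e-05).
In Eed−/− ESCs 11 of the 38 fell and 0 rose, against 12.1% and 24.2% of all genes, led by Eif2d at -0.78 (limma adjusted p = 0.00428) and Eif3l at -0.73 (limma adjusted p = 0.0073), and after rescaling 26 fell, against 22.5% of all genes. At an unadjusted p under 0.05 limma gave 14 and 0. Without the first Eed fl/− library 3 of the 38 were called, and without the second 1, while 4 were called without the filter. At 50 µM SAM 0 of the 38 passed in limma, nor did any at an unadjusted p under 0.05, against 0.389% of all genes called higher and 0.493% called lower.

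Rexo1, the gene that Gm1995 resembles, had 9.65 and 8.76 FPKM in low ΔΨm cells, against 10.2 and 10.98 FPKM in high ΔΨm cells. It did not pass there (log2 fold change -0.20, SE 0.14, limma adjusted p = 0.381), but was lower after rescaling, at -0.25 (limma adjusted p = 0.0121). In the Eed lines, where Gm1995 had its largest log2 fold change, Rexo1 was at 9.26 and 11.5 FPKM in Eed−/− ESCs against 9.84 and 10.9 FPKM in Eed fl/− ESCs (log2 fold change -0.0047, limma adjusted p = 0.983). Rexo1 fell by 1.07 with FAOi (limma adjusted p = 0.000654) and by 0.97 with MYCi (limma adjusted p = 0.00034). After rescaling it was at -0.28 with FAOi (limma adjusted p = 0.0105) and -0.21 with MYCi (limma adjusted p = 0.0141). Without the filter the FAOi call was lost (limma adjusted p = 0.0867). It also did not hold without the first or the second FAOi library, at -1.09 and -1.05. With Mat2a siRNA Rexo1 did not pass, at -0.77 (limma adjusted p = 0.1). That result also depended on single libraries, with -0.99 without the first Mat2a siRNA library and -0.54 without the second.

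MERVL-int and MT2_Mm, the internal part and the long terminal repeat of the MERVL element, mark the 2C-like state, and their mean FPKM per locus was read beside the 8 genes. MERVL-int, over 2600 loci, had 0.459 and 0.410 in low ΔΨm cells, against 0.0420 and 0.0432 in high ΔΨm cells. It had 1.96 and 1.35 with Mat2a siRNA, against 0.329 and 0.324 with control siRNA, and 1.94 and 2.21 in Eed−/− ESCs, against 0.598 and 0.601 in Eed fl/− ESCs.
With FAOi, where the 8 loci were lower, MERVL-int stood at 0.336 and 0.353, against 0.333 and 0.341 with water. MT2_Mm, over 2667 loci, was at 0.237 and 0.256 with FAOi, against 0.279 and 0.294 with water. With MYCi MERVL-int was at 0.348 and 0.363, against 0.343 and 0.343 with DMSO. These repeat values are as deposited and were not rescaled. The median log2 fold change over all tested genes was -0.66 with FAOi and -0.65 with MYCi, so an unchanged value lies above that of most genes. By RT-qPCR the study reported higher MERVL with both inhibitors. At 50 µM SAM MERVL-int was at 0.515 and 0.474, against 0.519 and 0.479 at 25 µM SAM. With control siRNA, water and DMSO it lay at 0.324 to 0.343, while the sum of the 8 loci was 3.91 to 13.7 FPKM. These 3 controls were normalized separately, so that their values can only be set side by side. Within the FAOi experiment, the ratio of FAOi to water was 1.02 for MERVL-int and 0.125 for the sum. There the mean over all loci of the family did not follow the cluster. In these bulk cultures fewer 2C-like cells and less RNA per such cell cannot be told apart.

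The genes whose level over the 24 libraries was most like the sum of the 8 were sought among 19451 genes tested in all 6 tables, outside the family and its copies. By Pearson's r of log2 levels less the table mean, 7 of the nearest 10 were Zscan4 genes of chromosome 7, which encode zinc finger proteins of the 2-cell embryo. They were Zscan4-ps2, Zscan4c, Zscan4f, Zscan4b, Zscan4e, Zscan4d and Zscan4-ps3, with an r of 0.99 each. The other 3 were the processed pseudogene Gm6494 on chromosome 10, with an r of 0.99, and Gm20767 on chromosome 13 and the deubiquitinase gene Usp17lb on chromosome 7, with 0.98 each.
Zscan4c had 30.2 and 26.3 FPKM in low ΔΨm cells, against 0.182 and 0.242 FPKM in high ΔΨm cells. With FAOi it had 0.282 and 0.302 FPKM, against 1.95 and 2.78 FPKM with water. In Eed−/− ESCs it had 65.3 and 71.1 FPKM, against 27.1 and 26.3 FPKM in Eed fl/− ESCs. The Zscan4 copies resemble each other in sequence as the Eif1a-like copies do, so that the 7 are not separate measurements. These correlations describe 24 libraries that include the groups by which the 8 loci had been chosen.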

How the data were processed

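RNA was sequenced after rRNA depletion, with ERCC spike-ins, in 24 libraries. The authors trimmed reads with Trim Galore and used TopHat2 2.1.1 for alignment to mm10 (GRCm38). Duplicate pairs were taken out by SAMtools 1.9, and featureCounts assigned the rest to Ensembl and NONCODE genes and HOMER 4.10 repeats, unstranded, dividing fragments that fit several places or features. The authors deposited FPKM, each table made on its own. Division and missing strand mean that levels of near-identical or overlapping copies are partly shared.

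Positions and sequences are from GENCODE M21 and RefSeq, both GRCm38, and 55144 of 55385 Ensembl IDs matched. Copies were found with blastn 2.17.0. Groups came from the sample titles. Tests used limma 3.58.1 with an intensity trend on log2(FPKM + 0.1), which understates changes of low genes, over genes with at least 0.1 FPKM in 2 or more libraries, with Benjamini-Hochberg adjustment over all of them and a threshold of 0.05, and were tested on simulated data. The 8 loci all passed this filter in all 6 tables. Fold changes run over 2 libraries a group. Depth was estimated from the smallest FPKM steps, and since fragments were divided no count test was run.

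The loci and lists were chosen with earlier results of these data known. Named were the 8 loci, their copies, 5 eIF1 genes, the neighbours Snw1 and Adck1, Rexo1, the 2 most changed initiation genes a direction and the 10 genes most like the sum. Alternatives were another pseudocount, no filter, median-of-ratios scaling, a replicate block and leaving out each library. The sums without Gm1995 and with further copies, and a crossed pairing, were added after seeing the data.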

Additional observations from a re-analysis of the deposited data

How the results depend on the processing

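Every log2 fold change of the sum and of each of the 8 loci kept its sign in low ΔΨm, Mat2a siRNA, FAOi and Eed−/− cells under the alternatives run. Median-of-ratios scaling put the sum at 4.39 with Mat2a siRNA, -2.10 with FAOi, -0.15 with MYCi and 0.069 at 50 µM SAM. It changed the sign of Gm5039, Gm2016 and Gm5662 at 50 µM SAM, to 0.10, 0.20 and 0.16, and of BB287469, Gm4027 and Gm5039 with MYCi, to 0.03, 0.18 and 0.47. A pseudocount of 1 put it at 5.69 in low ΔΨm cells, -2.02 with FAOi and -0.70 with MYCi, and the further copies at 2.17 in Eed−/− ESCs. Leaving out a library gave 6.24 to 6.49 in low ΔΨm cells, 3.16 to 4.11 with Mat2a siRNA, -3.06 to -2.64 with FAOi, -1.06 to -0.73 with MYCi, 1.88 to 2.17 in Eed−/− ESCs and -0.67 to -0.07 at 50 µM SAM.

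Of all genes, limma called 4308 in low ΔΨm cells, 12443 with Mat2a siRNA, 16577 with FAOi, 15976 with MYCi, 9800 in Eed−/− ESCs and 211 at 50 µM SAM. Without the filter these were 170, 146, 61, 9505, 4434 and 10. Median-of-ratios scaling gave 7672 in low ΔΨm cells and, at 50 µM SAM, 0 in limma, with 1449 at an unadjusted p under 0.05. It put the share of calls that were higher at 53.3% in low ΔΨm cells, 53.8% with Mat2a siRNA, 49.7% with FAOi, 47.2% with MYCi and 52.9% in Eed−/− ESCs, against 68.4%, 26.2%, 21.3%, 12.02% and 66.7% as deposited. Leaving out a library gave 2559 to 4303 genes in low ΔΨm cells, 2401 to 15419 with Mat2a siRNA, 3308 to 17469 with FAOi and 122 to 199 at 50 µM SAM.

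Of the 38 initiation genes, no filter left 1 called in low ΔΨm cells, 0 with Mat2a siRNA, 0 with FAOi and 4 in Eed−/− ESCs, and median-of-ratios scaling gave 17 in low ΔΨm cells and 26 in Eed−/− ESCs. Leaving out a library gave 0 to 37 with Mat2a siRNA, 2 to 38 with FAOi and 1 to 12 in Eed−/− ESCs. Eif1b and Adck1 changed sign with MYCi after rescaling, to 0.061 and 0.021. The cause of these changes was not tested.

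Replicate numbers had same-number correlations of -0.10 to 0.30 over 2 pairs and were not taken to pair the libraries. With the replicate block, 12828 genes and 37 initiation genes were called at 50 µM SAM, where the correlation was 0.30, and 4 initiation genes with Mat2a siRNA. Crossing the pairs of FAOi and water gave 15957 genes. The planned test of MERVL and MT2_Mm loci at the cluster was not run, since positions of repeats were not used here. Low levels rested on few fragments, which limits Gm2022 with FAOi and in high ΔΨm cells.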
